A study of Mus musculus with 6 samples.

Results

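The 9 genes described here belong to the peroxisome proliferator-activated receptor (PPAR) pathway: the receptors Ppara and Ppard, their retinoid X receptor partners Rxra and Rxrb, the coactivator Ppargc1b, and 4 target genes, Angptl4, Ucp2, Ehhadh and Acaa1a. They were chosen by name, as a pathway, from the 29370 genes of the deposited count matrix. The matrix covers 6 RNA-seq libraries from wild-type (WT) mouse CD8+ T cells, the cytotoxic T cells, which had been taken from pancreas, spleen and lymph nodes. The 3 palmitate libraries came from cells given 100 µM palmitate, a saturated fatty acid, and the 3 control libraries from cells labelled as controls. Both groups were kept in complete T cell medium and sequenced at 48 h, and the comparison addresses what palmitate does to these cells. What the control cells received in place of palmitate, the age of the mice, and whether the libraries of a group came from separate animals or cultures are not given in the sources used here, so p-values measure only the spread between these libraries.

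PPARs are nuclear receptors that bind fatty acids and their derivatives. Each binds DNA together with a retinoid X receptor, at paired copies of a short hexamer, and recruits coactivators that switch on genes for fatty acid uptake, oxidation and storage. Peroxisomes shorten very long and branched fatty acids by their own beta-oxidation, in which Ehhadh and Acaa1a catalyse successive steps. In T cells this pathway is known mainly for its links to the use of fatty acids as fuel in resting and memory states.

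Counts in the matrix summed to 16724588 to 29362276 reads per library, lowest in palmitate replicate 3. Levels are given as reads per 1000000 (CPM) of these totals after TMM scaling, edgeR's correction for differences in library composition. A gene is said to have risen or fallen, or to be called, when its p from edgeR's quasi-likelihood test was under 0.05 after Benjamini-Hochberg adjustment over all 12068 tested genes. Of those, 2759 passed (22.9%), 1343 of them higher with palmitate (11.1%) and 1416 lower (11.7%). Upper-quartile scaling shifted that split to 1651 higher and 1052 lower.

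Rxra, Acaa1a and Angptl4 rose with palmitate, by 3.11-fold, 1.64-fold and 1.64-fold. None of the 9 genes fell. Ppard, Rxrb, Ppargc1b, Ucp2 and Ehhadh had estimates above 0 that did not pass the test, and Ppara was at the limit of detection. Thus 3 of the 8 tested genes were called, all higher, where 11.1% of all tested genes were. DESeq2 and limma-voom each called 3 of them higher and 0 lower. An edgeR fit with the replicate number as a block called 5, Rxrb and Ucp2 in addition, where 16.5% of all tested genes were called higher. The lists and genes had been picked with results of these libraries known, so these counts are a description of a chosen set. The median log2 fold change of the 8 was 0.42, and that of all tested genes 0.02. In bulk RNA a change in the make-up of the cell population and a change of RNA per cell cannot be told apart.

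**Figure D1:**
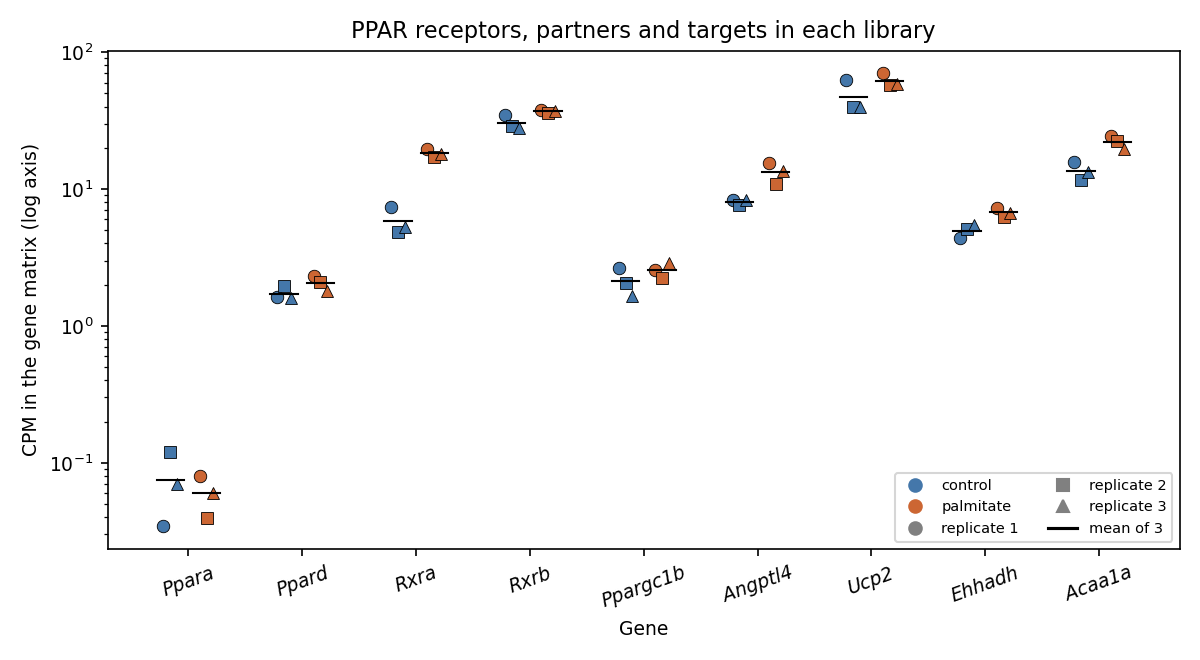
CPM of the 9 genes in each library on a log axis, with control libraries in blue, palmitate libraries in orange, the replicate number as the marker shape and the mean of 3 as a bar. The palmitate libraries lay above all controls for Rxra, Rxrb, Angptl4, Ehhadh and Acaa1a, and Ppara stayed at or under 0.12 CPM throughout.

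Of the receptors, Ppara, the isoform that drives fatty acid oxidation in liver, was represented by 1, 3 and 2 reads in the control libraries and 2, 1 and 1 in the palmitate libraries. Each of these lies at or under 3 reads, the level that a count of 0 allows, which corresponds to 0.103 to 0.179 CPM across libraries. Ppara was therefore not detectable above that floor, and no fold change is given. Ppard, the widely expressed isoform, measured 1.62, 1.96 and 1.59 CPM in the controls and 2.30, 2.08 and 1.79 CPM with palmitate. The lowest palmitate library lay below the highest control, so the groups overlapped. Its log2 fold change was 0.26 ± 0.23 (SE), with an edgeR adjusted p of 0.428. The third isoform, Pparg, the regulator of fat cell formation, was below the filter on low counts, with 12 reads over the controls and 32 over the palmitate libraries. It ran from 0.106 to 0.2 CPM in controls and from 0.363 to 0.716 CPM with palmitate, without overlap. With no filter on low counts edgeR gave it a log2 fold change of 1.71 ± 0.59 and an adjusted p of 0.0703.

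Rxra, a retinoid X receptor that partners the PPARs and several other nuclear receptors, had the largest change of the 9 genes. It measured 7.36, 4.85 and 5.32 CPM in the controls and 19.6, 17.02 and 18.0 CPM with palmitate. Every palmitate library stood far above the highest control, control replicate 1. The means were 5.84 ± 1.33 CPM (SD, n = 3) and 18.2 ± 1.33 CPM (SD, n = 3), a log2 fold change of 1.64 ± 0.17 with an edgeR adjusted p of 0.00263. The call held in all 6 fits that left out 1 library, with log2 fold changes from 1.52 to 1.83.

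Nearly all Rxra reads fell on 1 transcript, ENSMUST00000077257, which begins at the upstream of the gene's 2 RefSeq promoter windows. It held 100% of the gene's reads in the 3 controls and 99.2%, 99.6% and 97.1% with palmitate. The transcript that starts at the downstream window, ENSMUST00000100251, had no reads in any library. Both windows are shown because the transcripts that begin at them differed in the reads that Salmon assigned. Where transcription began was not measured. The sequences are the 250 bases before each start on the + strand, from RefSeq on GRCm38.p6, and capitals mark a near match to the direct repeat 1 element (DR1). A DR1 is 2 copies of AGGTCA in the same direction with 1 free base between them, the arrangement that a PPAR and its retinoid X receptor occupy.
Rxra upstream start, chr2:27676951-27677200: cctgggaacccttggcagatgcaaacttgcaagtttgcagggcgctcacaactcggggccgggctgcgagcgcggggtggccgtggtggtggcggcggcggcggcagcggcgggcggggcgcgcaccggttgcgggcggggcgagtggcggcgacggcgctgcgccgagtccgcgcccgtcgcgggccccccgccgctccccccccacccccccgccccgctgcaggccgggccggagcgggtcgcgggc
Rxra downstream start, chr2:27709042-27709291: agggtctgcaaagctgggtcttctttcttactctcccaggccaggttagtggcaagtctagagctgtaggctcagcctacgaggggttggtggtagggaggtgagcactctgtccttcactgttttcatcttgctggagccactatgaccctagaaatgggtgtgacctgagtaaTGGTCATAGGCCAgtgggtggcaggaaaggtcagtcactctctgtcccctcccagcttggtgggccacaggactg
The downstream window held a DR1-like stretch with 2 mismatches at positions -75 to -63 from the start, and the upstream window held none closer than 5 mismatches. Both strands were searched over the whole of each window, which runs past the start and so beyond the 250 bases printed. Of the 9 windows found for 7 of the genes, this was the 1 with a match at up to 2 mismatches, against 3.86% of all 32851 windows in the table. The hexamer AGGTCA itself occurred in 1 of the 9 windows, the same one, and in 16.3% of all windows. These are letter matches in short windows and describe nothing about binding.

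Rxrb, the second retinoid X receptor, measured 35.0, 28.7 and 27.7 CPM in the controls and 38.0, 36.0 and 37.1 CPM with palmitate. Control replicate 1 stood close under the palmitate libraries and the other controls lay lower, without overlap. The means were 30.5 ± 3.95 and 37.0 ± 0.977 CPM (SD, n = 3 each), a log2 fold change of 0.28 ± 0.10. The edgeR adjusted p was 0.0864, so Rxrb was not called. It was called with the replicate number as a block (0.29, adjusted p = 0.0381) and without control replicate 1 (0.39, adjusted p = 0.0158). Rxrg, the third retinoid X receptor, had 3 reads over the controls and 1 over the palmitate libraries.

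Ppargc1b encodes PGC-1beta, a coactivator of PPARs and of other regulators of mitochondrial genes. It measured 2.65, 2.04 and 1.66 CPM in the controls and 2.54, 2.24 and 2.86 CPM with palmitate. The groups overlapped, with the first control above 2 of the palmitate libraries. Its log2 fold change was 0.26 ± 0.24 with an edgeR adjusted p of 0.464, and it turned to -0.04 (adjusted p = 0.946) when transcript sums were corrected for the mean length of the transcripts. Its relative Ppargc1a, which encodes PGC-1alpha, had 7 reads over the controls and 12 over the palmitate libraries. Pprc1, which encodes the third relative, measured 54.1 ± 5.75 CPM in controls and 55.5 ± 2.69 CPM with palmitate (SD, n = 3 each), a log2 fold change of 0.04 with an edgeR adjusted p of 0.796.

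Among the targets, Angptl4 encodes a secreted protein that inhibits lipoprotein lipase. It measured 8.32, 7.70 and 8.25 CPM in the controls and 15.4, 10.8 and 13.6 CPM with palmitate. The controls lay close together and all 3 palmitate libraries were above them, palmitate replicate 2 by the least. The means were 8.09 ± 0.341 and 13.3 ± 2.28 CPM (SD, n = 3 each), a log2 fold change of 0.71 ± 0.15 with an edgeR adjusted p of 0.0154. The call was lost in 3 of the 6 fits that left out 1 library. Without control replicate 3 the adjusted p was 0.0647, without palmitate replicate 1 it was 0.0527, and without palmitate replicate 3 it was 0.0539, with log2 fold changes from 0.59 to 0.72 in those 3 fits.

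Acaa1a encodes peroxisomal 3-ketoacyl-CoA thiolase, the last enzyme of the peroxisomal beta-oxidation cycle. It measured 15.7, 11.7 and 13.2 CPM in the controls and 24.2, 22.6 and 19.7 CPM with palmitate. All palmitate libraries were above the highest control, control replicate 1. The means were 13.5 ± 2.01 and 22.2 ± 2.26 CPM (SD, n = 3 each), a log2 fold change of 0.71 ± 0.13 with an edgeR adjusted p of 0.0104. The call held in 5 of the 6 fits that left out 1 library and was lost without control replicate 3 (0.69, adjusted p = 0.0557).

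2 neighbours and 1 paralog bear on the counting of Acaa1a. In GENCODE M21, Myd88 overlaps it on the opposite strand by 1736 bases and Slc22a14 by 10624 bases, and the sources used here do not give the strand setting of the quantification. Myd88, an adaptor of innate immune receptors, fell from 64.9 ± 7.40 to 51.5 ± 3.66 CPM (SD, n = 3 each). Its log2 fold change was -0.33 ± 0.10 (edgeR adjusted p = 0.0467), a call lost in all 6 fits that left out 1 library. Slc22a14 had 0 reads over the controls and 1 over the palmitate libraries. The coding transcript of Acaa1a shares 43.8% of its 31-base words with Acaa1b, the paralogous thiolase, to which 0 control reads and 1 palmitate read were assigned. How reads were divided between the paralogs, or between the overlapping genes, was not tested.

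Ehhadh encodes the peroxisomal bifunctional enzyme, which acts just before the thiolase. It measured 4.37, 5.13 and 5.43 CPM in the controls and 7.30, 6.25 and 6.68 CPM with palmitate, without overlap. The log2 fold change was 0.44 ± 0.16, the unadjusted p 0.0231 and the edgeR adjusted p 0.0787, so Ehhadh was not called. It was not called in any of the 6 fits that left out 1 library either, where the log2 fold change ran from 0.35 to 0.50.

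Ucp2 encodes a carrier of the inner mitochondrial membrane from the uncoupling protein family. It measured 62.2, 39.7 and 39.8 CPM in the controls and 69.9, 57.4 and 58.7 CPM with palmitate. Control replicate 1 lay above 2 of the palmitate libraries, and the other 2 controls lay below all of them. The log2 fold change was 0.39 ± 0.19 with an edgeR adjusted p of 0.170. With the replicate number as a block it was 0.42 (adjusted p = 0.0129), and without control replicate 1 it was 0.64 (adjusted p = 0.00674), both past the threshold. Ucp2 overlaps Dnajb13 on the opposite strand by 305 bases. Dnajb13 measured 0.972 ± 0.227 CPM in controls and 1.70 ± 0.159 CPM with palmitate (SD, n = 3 each), and the matrix held 56.1% of its transcript reads. The part of this overlap in the Ucp2 counts was not tested.

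With the replicate block, 5 of the 8 tested genes were called higher, Rxrb and Ucp2 in addition to Rxra, Angptl4 and Acaa1a, where 16.5% of all tested genes were. Without control replicate 3 only Rxra was called, and without control replicate 1 the same 5 were called as with the block. Counted without a model, 5 of the 8 genes had all palmitate libraries above all controls, where 21.6% of all tested genes did. Control replicate 1 was the highest control for Rxra, Rxrb, Ppargc1b, Angptl4, Ucp2 and Acaa1a, and the lowest for Ehhadh.

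**Figure D2:**
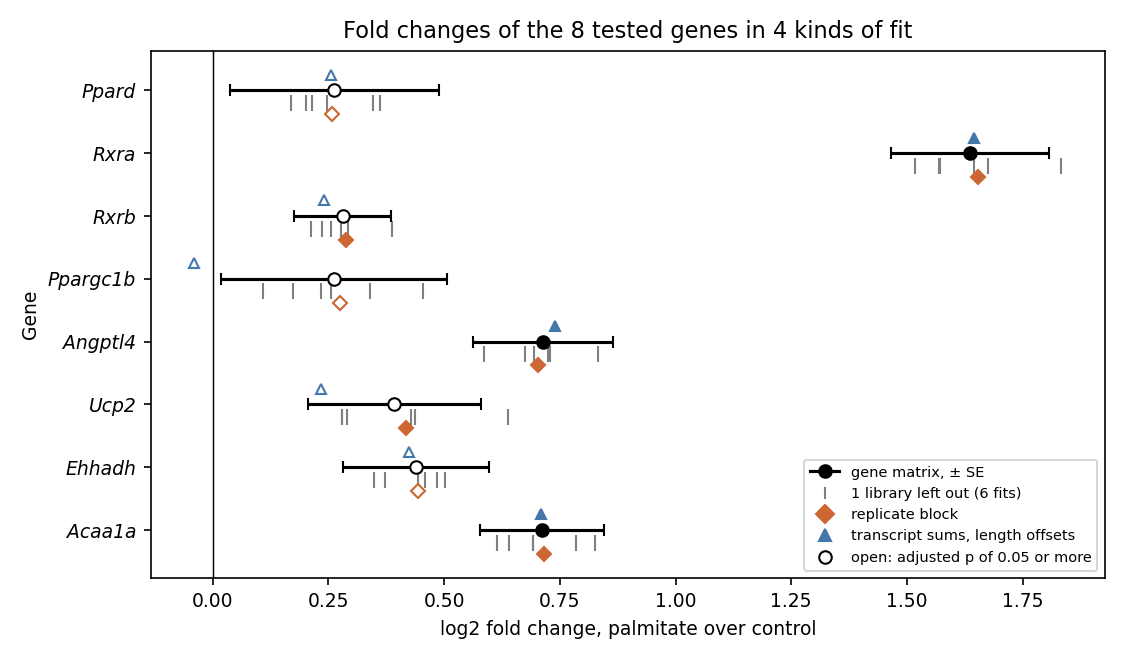
Log2 fold change of the 8 tested genes, palmitate over control, in the gene matrix (circles, bars ± SE), in 6 fits that each left out 1 library (grey ticks), with the replicate block (diamonds) and from transcript sums with length offsets (triangles). Filled symbols have an adjusted p under 0.05. Rxra stands apart at 1.64, and Ppargc1b is the 1 gene with an estimate under 0, at -0.04 with length offsets.

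Levels of different genes were compared per transcript length, in Salmon's transcripts per 1000000 (TPM), summed over each gene's transcripts. In controls Ucp2 was highest at 73.2 ± 8.02 TPM, followed by Rxrb at 18.4 ± 3.08, Acaa1a at 7.78 ± 0.632, Angptl4 at 4.09 ± 0.455, Ehhadh at 2.01 ± 0.193 and Rxra at 1.35 ± 0.306 TPM (SD, n = 3 each). Ppard followed at 0.900 ± 0.196 TPM and Ppargc1b at 0.806 ± 0.363 TPM, and their libraries overlapped. All other neighbours in this order were separated without overlap, Rxra from Ppard included, but the highest Ppargc1b library overlapped the Rxra range. With palmitate, Rxra reached 4.38 ± 0.518 TPM and lay above Ehhadh at 2.80 ± 0.297 TPM in every library. The rest of the order was Ucp2 at 89.2 ± 7.60, Rxrb at 22.5 ± 2.48, Acaa1a at 13.2 ± 0.801 and Angptl4 at 7.10 ± 1.5 TPM above Rxra, with Ppard at 1.11 ± 0.0616 and Ppargc1b at 0.806 ± 0.231 TPM below Ehhadh. Ppara is left out of the order, since its 1 to 3 reads a library gave between 0.0188 and 0.776 TPM depending on the length of the transcript they fell on. Ppard and Ppargc1b overlapped again. Of the retinoid X receptors, Rxrb was the more abundant in every library.

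The 9 genes had 48 transcripts with reads, of which 23 were tested in an edgeR fit over 39731 transcripts. None passed, and in that fit 0 transcripts of any gene did (0%), although 6297 had an unadjusted p under 0.05 (15.8%) and the smallest adjusted p was 0.0544. Of the 23, 21 had estimates above 0. The 3 with an unadjusted p under 0.05 were the main Rxra transcript (log2 fold change 1.58 ± 0.17, adjusted p = 0.0613), the coding Angptl4 transcript ENSMUST00000002360 (0.59 ± 0.18, adjusted p = 0.189) and the coding Acaa1a transcript ENSMUST00000039784 (0.48 ± 0.13, adjusted p = 0.148). With no filter on low counts edgeR called 225 transcripts, among them the main Rxra transcript.

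Angptl4 reads were divided between its coding transcript and ENSMUST00000173869, which is annotated as a target of nonsense-mediated decay. The coding transcript held 43.5%, 52.1% and 42.0% of the gene's reads in the controls and 38.5%, 55.8% and 39.2% with palmitate. The shares overlapped between groups. Acaa1a had a coding transcript with 63.6%, 85.9% and 72.3% of its reads in controls and 56.5%, 61.9% and 76.6% with palmitate. Most of its other reads were on transcripts annotated with a retained intron, at 36.4%, 14.1% and 25.3% in controls and 43.5%, 36.6% and 23.4% with palmitate. These shares overlapped as well. The main Rxrb transcript ENSMUST00000116612 held 54.0% to 75.3% of the gene's reads in controls and 53.8% to 63.6% with palmitate. Ehhadh had a single transcript.

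**Figure D3:**
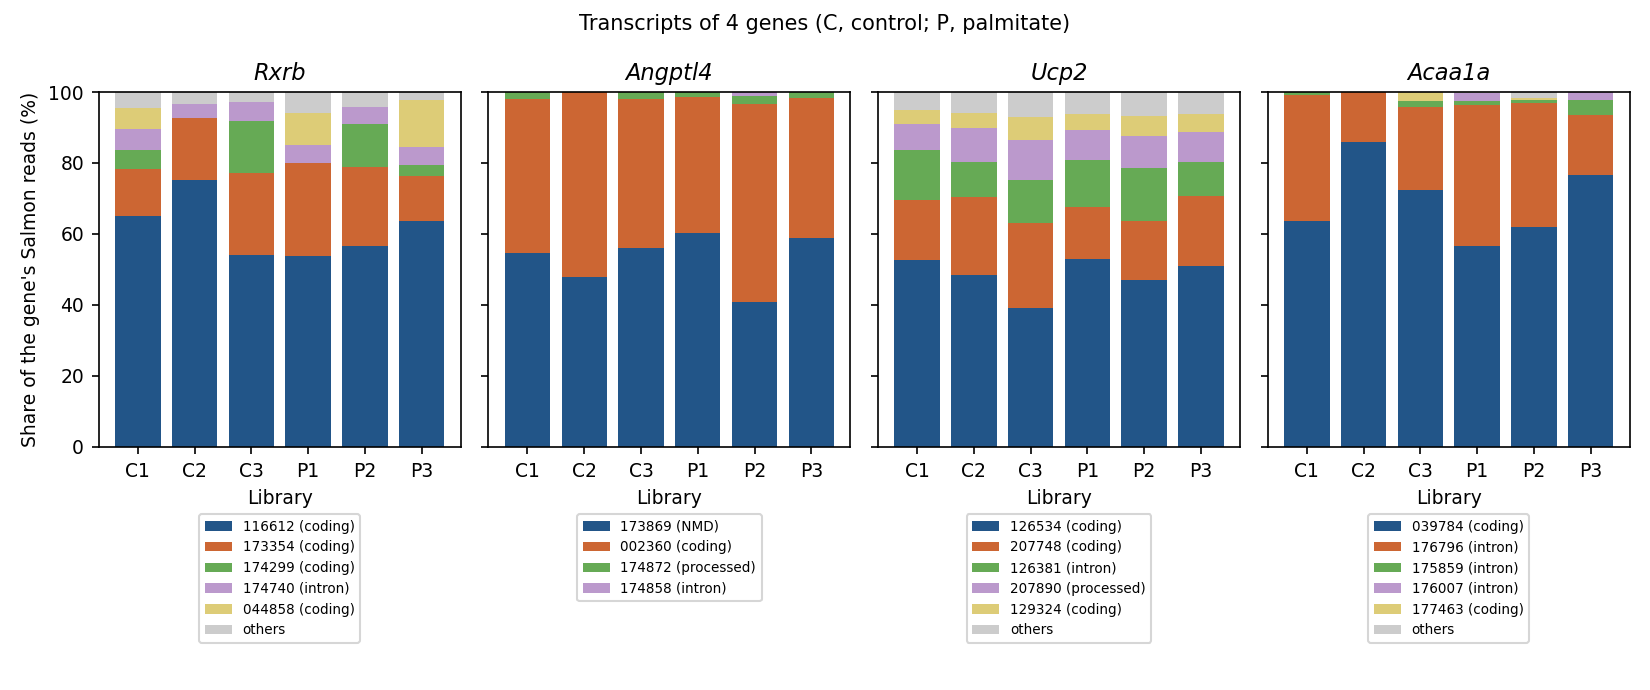
Share of each gene's Salmon reads on its most abundant transcripts, one stacked bar per library (C1 to C3 control, P1 to P3 palmitate), for Rxrb, Angptl4, Ucp2 and Acaa1a. Transcripts are labelled by the last digits of their Ensembl number with the GENCODE class (intron, retained intron; NMD, nonsense-mediated decay). The coding Angptl4 transcript held from 38.5% to 55.8% across the 6 libraries, with no separation of the groups.

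The count matrix did not hold every transcript of each gene. Its counts equalled sums of Salmon's transcript estimates to within 1 read, and for 7 of the 9 genes all reads were included. For Ucp2 the matrix held 72.6% of the transcript reads. It left out the coding transcript ENSMUST00000207748, with 407, 315 and 417 reads in the controls and 334, 323 and 270 with palmitate. It also left out the processed transcript ENSMUST00000207890, with 169, 137 and 198 reads in the controls and 193, 178 and 113 with palmitate. For Ppard the matrix held 76.6%, without the retained-intron transcript ENSMUST00000233383. When all transcripts were summed, 1600 of 13088 genes were called higher (12.2%), and among the 9 genes Rxra, Angptl4 and Acaa1a were again the 3 called. With length offsets as well, Ucp2 was at 0.23 on the log2 scale (adjusted p = 0.122).

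Around these genes, 9 lists of the wider pathway held 148 distinct genes, of which 118 were tested, 23 rose and 10 fell, where 11.1% and 11.7% of all tested genes did. The replicate block gave 31 higher and 15 lower. The share called in either direction is given for each list, to be read beside 22.9% of all tested genes. The receptor family list, made of the 3 PPARs, the 3 retinoid X receptors and the 3 PGC-1 relatives, had 5 tested genes, of which Rxra rose and none fell (20% called). Its median log2 fold change was 0.26, beside 0.02 over all tested genes. With the replicate block 2 of its genes were called higher, Rxrb being the other.

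Of 14 cofactors of nuclear receptors, all tested, 2 rose and 2 fell (28.6% called), and the median log2 fold change was 0.06. The replicate block gave 3 higher. Summing all transcripts gave 4 higher, and 5 with length offsets. The coactivators Ncoa3 (0.47 ± 0.09, edgeR adjusted p = 0.00991) and Ncoa1 (0.41 ± 0.13, adjusted p = 0.0480) rose. The deacetylases Sirt1 (-0.39 ± 0.09, adjusted p = 0.0198) and Hdac3 (-0.27 ± 0.07, adjusted p = 0.0236), the latter part of nuclear receptor corepressor complexes, fell. Ncoa3 kept its call in all 6 fits that left out 1 library, Sirt1 and Hdac3 in 2 each and Ncoa1 in 1. Of the 10 other receptors that can pair with retinoid X receptors or relate to them, 9 were tested, 3 rose and none fell (33.3% called), with a median of 0.51. The retinoic acid receptors Rarg and Rara rose, from 2.40 ± 0.512 to 5.09 ± 0.383 CPM and from 4.19 ± 1.15 to 9.01 ± 0.898 CPM (SD, n = 3 each). Their log2 fold changes were 1.09 ± 0.21 (edgeR adjusted p = 0.0113) and 1.1 ± 0.21 (adjusted p = 0.0114), and that of the oxysterol receptor Nr1h2 was 0.51 ± 0.14 (adjusted p = 0.0327). Rarg and Rara kept their calls in 5 of the 6 fits that left out 1 library and Nr1h2 in 1. No call of this list was left without control replicate 3, and with transcript sums and length offsets only Rarg was called. Under the replicate block 4 of its genes were called higher.

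Of 40 PPAR target genes, 29 were tested, 10 rose and 2 fell (41.4% called), and the median was 0.28. The block gave 13 higher and 3 lower. Without control replicate 3, 6 were called higher and 1 lower, and with length offsets none was called lower. Leaving aside Angptl4, Ucp2, Ehhadh and Acaa1a, 8 of 25 rose and 2 fell, with a median of 0.11. Cpt1a, the gate of mitochondrial fatty acid import, rose from 21.1 ± 1.18 to 80.6 ± 14.8 CPM (SD, n = 3 each; log2 fold change 1.93 ± 0.13, edgeR adjusted p = 0.00113). The matrix held 60.3% of its transcript reads, and summed over all transcripts with length offsets the change was 0.50 on the log2 scale (adjusted p = 0.0152). Pdk4, an inhibitor of pyruvate dehydrogenase, rose from 0.186 ± 0.0817 to 1.08 ± 0.184 CPM, with 15 reads over the controls and 73 over the palmitate libraries (log2 fold change 2.53 ± 0.40, adjusted p = 0.00627). Plin2, a lipid droplet coat protein, rose by 1.36 ± 0.12, Acadvl, the very long chain acyl-CoA dehydrogenase, by 1.07 ± 0.07, and Slc25a20, the carnitine carrier, by 0.55 ± 0.08 on the log2 scale, each in all 6 fits that left out 1 library. Mgll, monoacylglycerol lipase, fell by 1.27 on the log2 scale (adjusted p = 0.00533), and by 0.89 with length offsets (adjusted p = 0.0740). Vnn1, Creb3l3, Cyp4a10 and Cyp4a14, targets best known from liver, had 0 reads in every library.

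Of 38 peroxisomal beta-oxidation and lipid enzymes, 32 were tested, 8 rose and 3 fell (34.4% called), and the median was 0.09. Without Ehhadh and Acaa1a the counts were 7 and 3 of 30, and the median 0.02. Hsd17b4, the other bifunctional enzyme, measured 56.0 ± 2.71 and 51.4 ± 2.23 CPM (SD, n = 3 each), a log2 fold change of -0.12 with an edgeR adjusted p of 0.283. Acox3, an oxidase of branched-chain substrates (0.51 ± 0.12, adjusted p = 0.0210), catalase, Cat (0.38 ± 0.09, adjusted p = 0.0227), and malonyl-CoA decarboxylase, Mlycd (0.63 ± 0.16, adjusted p = 0.0263), rose. The carnitine acetyltransferase Crat (-0.69 ± 0.17, adjusted p = 0.0241) and the coenzyme A hydrolase Nudt19 (-0.33 ± 0.08, adjusted p = 0.0214) fell. Besides Acaa1a, each of these 5 calls held in 3 or fewer of the 6 fits that left out 1 library, and no enzyme of the list was called without control replicate 3. With length offsets 3 rose in place of 8. Under the replicate block 9 rose in place of 8, and 5 fell in place of 3. Decr2, named here after its values were seen, is counted among the 8 that rose (edgeR adjusted p = 0.0389). It had the largest estimate of the list at 3.17 ± 0.84, but the matrix held only 9.40% of its transcript reads. Over all transcripts its log2 fold change was -0.08 (adjusted p = 0.572).

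Of 18 peroxins and peroxisomal membrane proteins, which build the organelle, all were tested and none was called, with a median of -0.03. At an unadjusted p under 0.05 edgeR had 1 higher and 1 lower, and DESeq2 and limma-voom called 0 in each direction. Of 8 uncoupling proteins and near relatives, 6 were tested, none rose and 1 fell (16.7% called), the adenine nucleotide carrier Slc25a4 (-0.23 ± 0.07, edgeR adjusted p = 0.0481, kept in 1 of the 6 fits that left out 1 library). With the replicate block 1 was called higher, Ucp2, and 2 lower. Ucp1 had 0 reads and Ucp3 had 2 over the controls and 3 over the palmitate libraries. Of 10 angiopoietin-like proteins and lipoprotein lipase factors, 5 were tested, 2 rose and none fell (40.0% called). Under the replicate block 3 were called higher. Besides Angptl4, Angptl6 rose from 1.93 ± 0.223 to 3.56 ± 0.672 CPM (SD, n = 3 each; log2 fold change 0.88 ± 0.23, edgeR adjusted p = 0.0278), a call kept in 1 of the 6 fits. Lpl itself, the lipase that Angptl4 inhibits, measured 4.06 ± 0.463 and 5.55 ± 0.845 CPM, a log2 fold change of 0.45 ± 0.18 with an adjusted p of 0.109. Of 10 partner factors of the PGC-1 coactivators, 8 were tested, none rose and 2 fell (25.0% called), with a median of -0.15. These were Tfam, the packaging factor of mitochondrial DNA (-0.42 ± 0.08, edgeR adjusted p = 0.0115), and Gabpa, a regulator of nuclear genes for mitochondria (-0.36 ± 0.09, adjusted p = 0.0286). Tfam kept its call in 5 of the 6 fits that left out 1 library and Gabpa in 1, and neither was called without control replicate 3. Under the block 3 genes of the list were called lower.

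**Figure D4:**
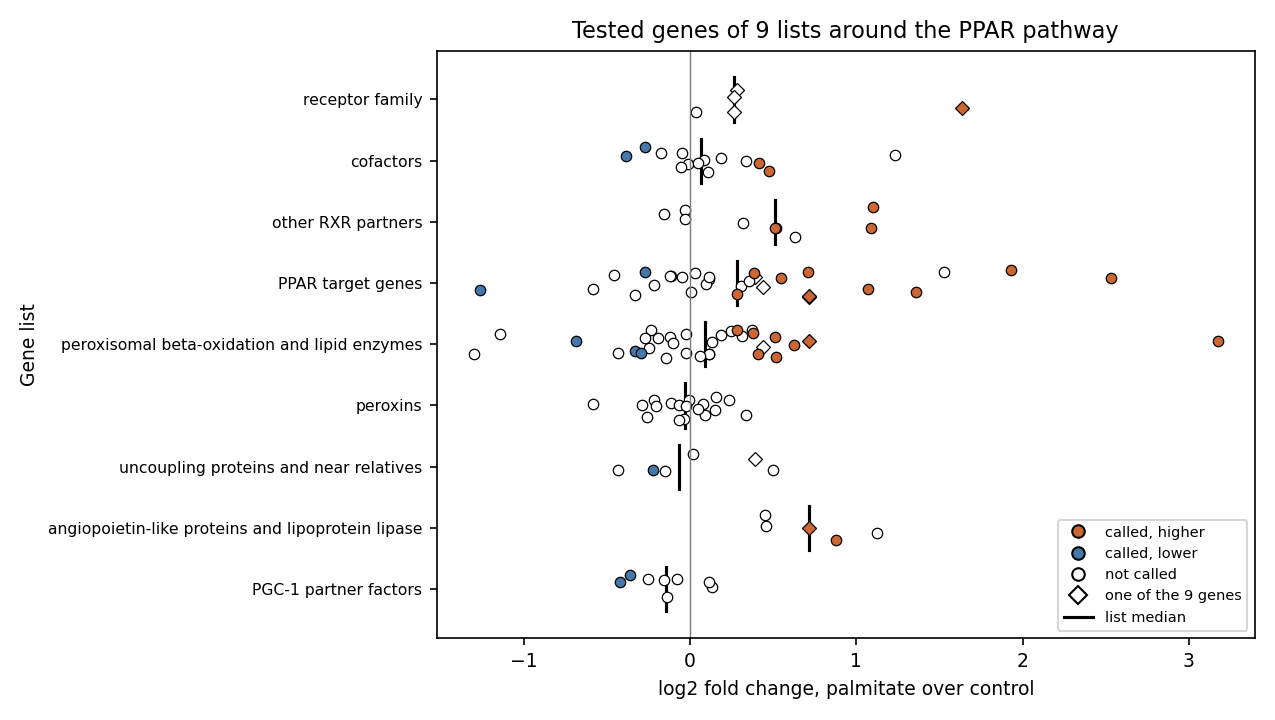
Log2 fold changes, palmitate over control, of the tested genes of 9 pathway lists, with orange for genes that rose, blue for genes that fell, white for genes not called, diamonds for the 9 genes and a bar at each list's median. List medians ran from -0.15 for the PGC-1 partner factors to 0.71 for the angiopoietin-like proteins. The point at 3.17 is Decr2, of whose reads the matrix held 9.40%.

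For each gene that rose, the 3 genes with the most similar pattern were sought by Pearson correlation of log2 CPM over the 6 libraries, among 8593 genes with a mean of at least 5 CPM. These were Saal1, Patj and Sytl1 for Rxra, with r from 0.997 to 0.998. For Angptl4 they were Dcp1b, Esyt1 and Kidins220, with r from 0.993 to 0.995, and for Acaa1a they were Tef, Map3k3 and Fbxl20, with r from 0.997 to 0.998. The 6 libraries share the split into 2 groups, so these values describe likeness within this set of libraries only.

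The labelled cell type was checked against marker lists. All 7 genes of the CD8 T cell list were tested and called, 6 higher with palmitate and 1, Gzmb, lower, where 22.9% of all tested genes were called. In the fits that left out 1 library, from 0 to 6 were called higher. Calls were kept in 1 of the 6 fits for Cd8b1 and in 5 for Cd3d and Gzmb, with the other genes between. The matrix held 24.2% of the transcript reads of Trac and 67.6% of those of Cd3e. Cd8a measured 315 ± 64.3 and 516 ± 36.0 CPM (SD, n = 3 each), while Cd4 had 14 reads over the controls and 33 over the palmitate libraries. In the B and plasma cell list, 2 of 7 tested genes rose, both at low levels. Mean Jchain went from 1.78 to 9.76 CPM and mean Cd79a from 0.210 to 0.835 CPM. The summed level was 171 to 239.9 CPM in controls and 262 to 284 CPM with palmitate, without overlap. Most of that sum was Ighm, at 157 to 227 and 231 to 250 CPM, which was not called (edgeR adjusted p = 0.0801). Under the replicate block 4 were called higher, Ms4a1 (0.67, adjusted p = 0.0172) and Ighm (0.36, adjusted p = 0.0181) being the others. The summed stromal and endothelial list was 35.8 to 42.1 and 47.0 to 64.2 CPM, nearly all of it Pecam1, which rose. The erythroid and platelet list summed to 4.82 to 5.92 and 6.09 to 9.88 CPM, with Hbb-bs its 1 called gene, higher. The adipocyte list summed to between 2.89 and 3.81 CPM in controls and between 0.895 and 1.81 CPM with palmitate, nearly all of it Retn, its 1 tested gene, which fell. Lep and Cfd of that list were at 0. Plin1 was at 0 in the matrix, which held 0% of its transcript reads, and over all its transcripts the log2 fold change was -0.69 ± 0.38 (edgeR adjusted p = 0.212). No gene was called in the CD4 T cell list (132 to 389 and 101 to 134 CPM, nearly all Ctla4), the macrophage and monocyte list (2.73 to 4.99 and 4.11 to 4.76 CPM), the dendritic cell list (11.9 to 17.1 and 10.7 to 18.1 CPM), the neutrophil list (0.12 to 0.619 and 0.236 to 0.766 CPM), the NK cell list (167 to 185 and 143 to 162 CPM) or the pancreatic list (0.378 to 0.810 and 0.645 to 1.49 CPM). At an unadjusted p under 0.05 edgeR had 1 lower gene in each of the CD4 T cell and NK cell lists and none in the other 4. DESeq2 called 1 lower in each of those lists, and limma-voom called none in any of the 6. Low counts left few genes to test: 2 of 4 (CD4 T cell), 2 of 8 (macrophage), 4 of 6 (dendritic), 1 of 5 (neutrophil), 3 of 4 (NK) and 1 of 8 (pancreatic). Cd4 and Foxp3 were untested, and both were higher with palmitate without overlap. Foxp3 had 0, 1 and 0 reads in the controls and 10, 3 and 2 with palmitate. With no filter on low counts their edgeR adjusted p was 0.114 and 0.0571. With the replicate block 1 gene of the NK cell list was called lower, Eomes (-0.23, adjusted p = 0.0220), which CD8+ T cells also express. Eomes made up nearly all of that list's sum, at 166 to 185 CPM in controls and 141 to 161 CPM with palmitate. Pnlip, Prss1, Ctrb1, Ins1 and Ins2 of the pancreatic list were at 0, as were S100a8, S100a9 and Elane of the neutrophil list. The part of these markers in the values of the 9 genes was not tested.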

How the data were processed

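Per the labels' protocols, an RNeasy Mini kit gave the RNA and a SMARTER mRNA-Seq kit the libraries. The submitters' processing notes list these tools and no parameters: DESeq 1.42.0, Salmon 1.10.0 and Trim Galore 0.6.10, on GRCm39. The authors deposited a matrix of whole-number estimated counts for 29370 genes. They also deposited Salmon tables with estimated counts and TPM for 116224 transcripts per library, rounded here before testing. No column was left unused (0), and no entry lacked a gene (0).

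The members and lists were chosen with earlier results of these data known. Besides the 9 genes, the text names Pparg, Rxrg, Ppargc1a, Pprc1, Acaa1b, Hsd17b4, Pdk4, Cpt1a, Plin2, Ucp1, Ucp3 and Lpl always (other genes of this rule are not reported here), up to 6 called genes of each list by smallest adjusted p, and for each called member the 3 genes most like it. Symbols matched for 29134 genes, and 114857 transcripts matched GENCODE M21. Promoter sequences are RefSeq's on GRCm38.p6, found for 7 of the 9 genes.

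Genes were tested with edgeR 4.0.16 in R 4.3.3 (TMM scaling, filterByExpr, robust quasi-likelihood test, two-sided, all 6 libraries, no covariate), and log2 fold changes are palmitate over control. Ppara did not pass the filter and is left out of every count of tested genes. DESeq2 1.42.0, limma 3.58.1 (voom), other scalings and filters, transcript sums, the replicate block and leaving out each library were alternatives. The fits were tested on simulated data. The replicate numbers come from the sample titles. Deviations from the group means correlated at 0.27, 0.17 and 0.17 between same-numbered libraries and from -0.23 to 0.07 between others. The numbers were therefore taken to pair libraries, although the main fit has no block. Blocked values or counts are printed where they change a call. Replicates of a group differed by more than sampling noise, with chi-square per gene from 11.5 to 37.6. The level that a count of 0 allows, 3 reads, covers counting error only.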

Additional observations from a re-analysis of the deposited data

How the results depend on the processing

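Ppara, Pparg, Rxrg and Ppargc1a had too few reads to pass the filter on low counts, and with 3 libraries a group 1 library can decide a call. The 2759 called genes became 3993 with the replicate block. Leaving out 1 library gave between 690 (without control replicate 3) and 3433 (without control replicate 1), the other 4 fits giving 1304 to 1651. Of the 9 genes, 3 were called, 5 with the replicate block, and between 1 (without control replicate 3) and 5 (without control replicate 1) with 1 library left out. The block changed the call of no other of the 9 genes than Rxrb and Ucp2. The 33 called list genes became 46 with the block and ran from 9 (without control replicate 3) to 42 (without control replicate 1). The count of called transcripts of the 9 genes went from 0 to 1 with no filter on low counts, and the 3 genes called from transcript sums remained 3 in number with length offsets. Promoter windows with a DR1-like match numbered 1 at 2 mismatches and 0 at either 1 or 0 mismatches. With transcript sums and length offsets the log2 fold change of Ppargc1b reversed to -0.0401 (adjusted p = 0.946). The cause of these shifts was not tested.

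Over 15 alternatives the log2 fold change of Rxra ran from 1.52 to 1.83, and its edgeR, DESeq2 or limma adjusted p reached 0.0230 at most. The adjusted p ran from 2.03e-04 to 0.0557 for Acaa1a, from 0.00170 to 0.0647 for Angptl4, from 0.0158 to 0.270 for Rxrb, from 0.00674 to 0.401 for Ucp2 and from 0.0520 to 0.203 for Ehhadh. Over 14 alternatives it ran from 0.334 to 0.7 for Ppard and from 0.218 to 0.946 for Ppargc1b.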
